A study of Homo sapiens with 4 samples.

Results

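The comparison of estradiol with vehicle covers the open-chromatin regions called on chromosomes 1 to 22 and X in Ishikawa, a long-established cell line from a human endometrial adenocarcinoma. There were 4761 such regions after 10 nM estradiol for 1 hour and 1914 after vehicle (DMSO) for 1 hour, 6675 of the 15269 regions in the 4 libraries of the series. The groups were taken from the treatment labels. Both groups were the same cell line, kept before treatment in phenol red-free RPMI-1640 medium with charcoal/dextran treated serum, which is low in steroid hormones. No allele or transgene is named in the labels. The assay was ATAC-seq: a transposase inserts sequencing adapters into DNA that is not protected by nucleosomes. Each treatment had 1 library, so the values below describe these 2 libraries, and no spread between replicates could be measured.

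Estradiol is the ligand of the estrogen receptor, a nuclear receptor that binds estrogen response elements in DNA once it holds its ligand. Most of its binding sites lie in enhancers away from promoters, and pioneer factors such as those of the FOXA family can open such sites before the receptor binds. In the endometrium estrogen drives growth of the epithelium, and many endometrial adenocarcinomas express the receptor. The comparison addresses which chromatin is open shortly after the receptor is activated. Regions are given by their position on hg19. A gene annotation and a genome sequence of that build were not used here, so no region is named by a gene, no sequence is shown, and the labelled cell type was not checked against its markers.

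The estradiol library was the deeper one. It held 20185339 tags after filtering and the vehicle library 10694743, and the caller extended tags to 84 bp after estradiol and to 104 bp in vehicle. To compare heights, the pileup at each summit (the number of extended tags covering it) was divided by the library's mean coverage, which is tags times extension length over a 2.7 Gb genome: 0.628 for estradiol and 0.412 for vehicle. A scaled height of 40 therefore means 40 times the mean coverage of that library. Regions spread over 712 windows of 1 Mb that held an estradiol region and no vehicle region, against 28 windows with the reverse and 1160 with both. Nearly every megabase with a vehicle region thus also held an estradiol region, and estradiol regions reached many more. The estradiol list is also the longer one, and windows were not counted with lists of equal length.

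More regions were called after estradiol, and at regions open in both libraries the scaled height was mostly lower there. The authors' fold enrichment, which adds 1 to both the pileup and the local background, had a median ratio slightly above 1. Among the 4761 estradiol regions, 1672 shared at least 1 bp with a vehicle region, and 3089 (64.9%; 95% exact Clopper-Pearson interval 63.5 to 66.2) did not. Of the 1914 vehicle regions, 246 (12.9%; 11.4 to 14.4) had no estradiol counterpart. Between the strongest 1914 regions of each list by p-value, 821 estradiol and 815 vehicle regions had no counterpart. Lists of equal length must give nearly equal counts, since most regions have a single partner. This cut therefore cannot say whether an imbalance remains apart from list length. The intervals above hold no more than counting error, since regions of 1 library do not replicate a treatment. Regions without a counterpart are called estradiol-only and vehicle-only below, words that describe list membership. A missing call means that the region did not reach the caller's threshold in that library.

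Summits of overlapping regions were mostly close together. The median distance between the 2 summits was 34 bp, and 64.8% of the 1672 pairs had summits within 50 bp of each other; the largest distance was 363 bp. The median length was 190 bp after estradiol and 159 bp in vehicle. Because the estradiol library was deeper, the median pileup was 24 tags after estradiol and 19 tags in vehicle. After scaling the order turned: the median height was 38.2 times mean coverage after estradiol and 46.1 times in vehicle.

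The median ratio of scaled heights, estradiol over vehicle, was 0.81 (95% order-statistic interval 0.81 to 0.83). This interval treats the pairs as separate draws, and holds neither spread between libraries nor the choice of scaling. The ratio was below 1 at 1398 of the 1672 pairs (83.6%), and 90% of the pairs had ratios between 0.58 and 1.14. No pair reached a ratio of 2 (0 of 1672, 0% called), and 12 pairs (0.718%) had a ratio of 0.5 or less. The shift was alike for low and high regions. With the pairs divided by mean height into 5 bins of 334 or 335, the median ratio lay between 0.80 and 0.84 in every bin. It was also below 1 on each of the 23 chromosomes, between 0.75 on chromosome 13 and 0.85 on chromosome 16 among the 21 chromosomes with at least 10 pairs.

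The direction of this shift depended on the measure of height. The authors' fold enrichment sets each summit against the local background of its own library, after adding 1 to both. Its median ratio was 1.06, with 1042 pairs above 1 and 630 below. The local background itself, relative to mean coverage, had a median ratio of 0.86. On the scaled measure summits and their surroundings were thus both lower after estradiol, and by median ratio (0.81 and 0.86) the summits no less so. The added 1 weighs more on the smaller tag counts of the vehicle library. Its part in the sign of the median was not tested. On the fold enrichment, too, no pair reached 2 and none fell to 0.5. On both measures, therefore, no pair was doubled, while the sign of the median differed. A ratio exists only where both libraries had a call. Estradiol-only regions have none, so these values cannot say whether such a region doubled. Beside this, dexamethasone, a glucocorticoid, was compared with the same vehicle library. Its median ratio of scaled heights was 1.27 over 1845 pairs, with 27 pairs at 2 or more (1.46%) and 0 at 0.5 or less. Its median ratio of fold enrichment was 1.22. The comparisons share the vehicle library, and with 1 library a treatment the difference between them was not tested.

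**Figure D1:**
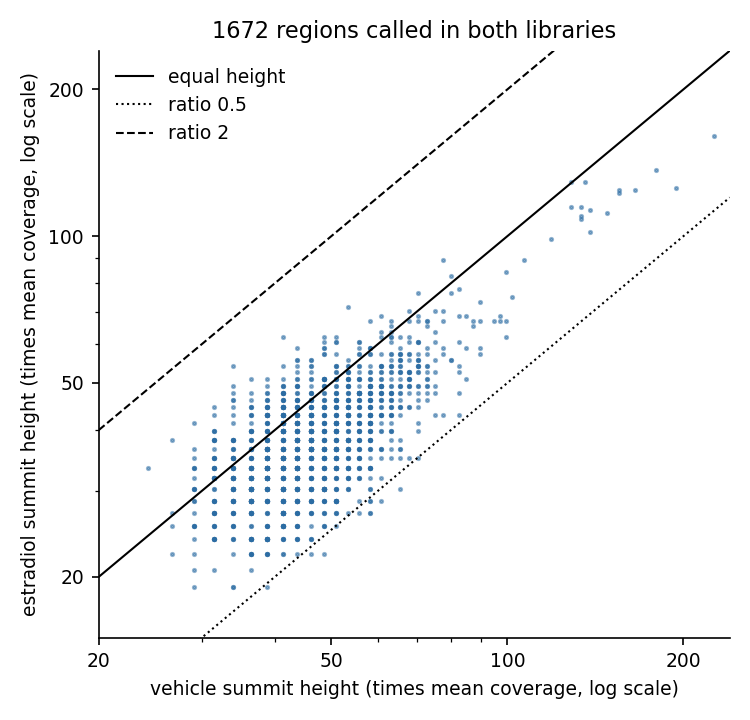
Summit heights of the 1672 overlapping pairs, vehicle on the x axis and estradiol on the y axis, each as times the mean coverage of its library on a log scale; each point is 1 pair and the lines mark equal height and ratios of 0.5 and 2. Most points (1398) lie under the line of equal height, 12 lie on or under the line for 0.5 and none reaches the line for 2.

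**Figure D2:**
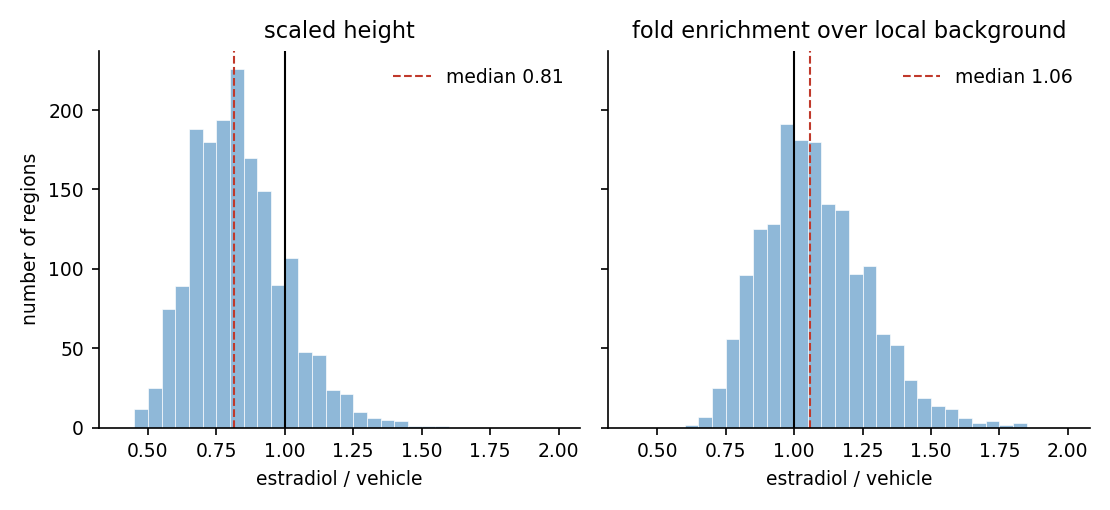
Number of overlapping regions (y axis) by the ratio of estradiol to vehicle (x axis), for scaled height on the left and for the authors' fold enrichment over local background on the right; the solid line marks 1 and the dashed line the median. The median is 0.81 for scaled height and 1.06 for fold enrichment.

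The pairs with the highest ratios of scaled height were chosen among the 1364 pairs with at least 20 tags in the higher library. The highest lay on chromosome 8 from 73920905 to 73921096, where the pileup was 34 tags after estradiol and 14 tags in vehicle. Its scaled height was 54.1 after estradiol and 34.0 in vehicle, a ratio of 1.59 with a counting interval of 0.83 to 3.21 from the exact conditional binomial. The next, on chromosome 16 from 14580862 to 14580989, had 39 tags after estradiol and 17 in vehicle and a ratio of 1.50 (0.83 to 2.84). The third was on chromosome 9 from 117314310 to 117314493, with 31 and 14 tags and a ratio of 1.45 (0.75 to 2.96). The other three, which started on chromosome 4 at 141445083, on chromosome 7 at 16524506 and on chromosome 11 at 110247890, had ratios between 1.41 and 1.43. Every one of these 6 intervals includes 1, and in all 1672 pairs no counting interval lay above 1 (0% called). Scaled to a median ratio of 1, the ratios of these 6 pairs were 1.74 to 1.96 and 2 of their intervals lay above 1.

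The pairs with the lowest ratios had fewer tags after estradiol than in vehicle. On chromosome 7 from 44240432 to 44240564 the estradiol pileup was 14 tags and the vehicle pileup 20 tags, although the estradiol library was the deeper one, giving a ratio of 0.46 (0.21 to 0.96). On chromosome 8 the estradiol region from 103251119 to 103251311 had 19 tags and its vehicle partner, 601 bp long from 103251177 to 103251777, had 27 tags, a ratio of 0.46 (0.24 to 0.86). The summits of that pair were 220 bp apart, so they do not mark the same point. On chromosome 5 from 153418416 to 153418510, where the summits were 1 bp apart, the pileups were 17 and 24 tags and the ratio was 0.46 (0.23 to 0.90). On chromosome 9 from 91925706 to 91925860, with summits 2 bp apart, they were 17 and 23 tags, a ratio of 0.48 (0.24 to 0.95).

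The remaining pairs, starting on chromosome 7 at 103848418 and on chromosome 14 at 105218980, had ratios of 0.46 and 0.47, and the summits of the latter pair were 256 bp apart. All 6 of these intervals lie below 1, but the pairs were picked as the lowest of many. Over all pairs, 24 counting intervals (1.44%) lay below 1, on 12 chromosomes. These counts depend on the overall shift: scaled to a median ratio of 1, the 6 ratios were 0.56 to 0.60, none of the 1672 intervals lay below 1 and 2 lay above 1. After dexamethasone the 6 regions had scaled heights from 32.4 to 81.0, where vehicle had 48.6 to 65.5 and estradiol 22.3 to 30.3.

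The highest shared regions had ratios from 0.74 to 1.15. Among pairs with no neighbour within 10 kb in either list, the highest by mean scaled height was on chromosome 1 from 569859 to 569998, with 86 tags after estradiol and 74 in vehicle. Its scaled height was 137 after estradiol and 180 in vehicle, a ratio of 0.76 (0.55 to 1.05). The next was on chromosome 1 from 156186276 to 156186598, with 69 and 55 tags and a ratio of 0.82 (0.57 to 1.20). It was followed by chromosome 11 from 85195011 to 85195187, with 68 and 55 tags and a ratio of 0.81 (0.56 to 1.18). The regions on chromosome 1 from 91852785 and chromosome 17 from 33478112 had ratios of 0.74 and 0.85. The exception among these 6 was on chromosome 12 from 56211511 to 56211853, where the estradiol library had 56 tags and vehicle 32. Its scaled heights were 89.2 and 77.7, a ratio of 1.15 (0.73 to 1.83), and its fold enrichment was 17.3 after estradiol and 11.7 in vehicle. The intervals of all 6 include 1. Regions prone to mapping artefacts were not screened here either, so these heights need not mark the most open chromatin.

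The estradiol-only regions were lower and shorter than those shared with vehicle. Their median pileup was 18 tags and their median scaled height 28.7 (quartiles 25.5 and 33.4), against 24 tags and 38.2 (31.8 and 44.6) for estradiol regions with a vehicle counterpart. Their median length was 119 bp, against 190 bp. The vehicle-only regions stood in the same relation to their list, with a median height of 38.8 against 46.1 and a median length of 119 bp against 157 bp. Length bears on these calls directly, because the shortest region in each list was exactly as long as that library's extension, 84 bp after estradiol and 104 bp in vehicle. Of the estradiol-only regions, 1077 (34.9%; 33.2 to 36.6) were shorter than the shortest vehicle region, against 122 (7.30%; 6.10 to 8.65) of the shared ones. With both lists held to at least 104 bp, 2012 estradiol-only regions were left.

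**Figure D3:**
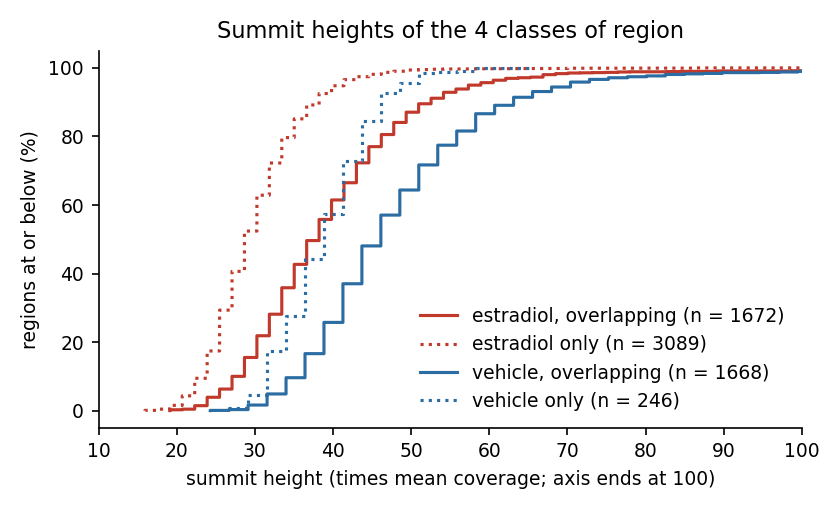
Cumulative percentage of regions (y axis) by summit height in times mean coverage (x axis) for the 4 classes of region. The curve of the 3089 estradiol-only regions lies furthest to the left, with a median of 28.7, and that of the 1668 overlapping vehicle regions furthest to the right, with a median of 46.1.

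Whether an estradiol region was also called in vehicle followed its height. Of the estradiol regions with a scaled height of 25 to 30, 15.2% (13.3 to 17.3) were called in vehicle, of those at 35 to 40 47.8% (44.5 to 51.2), and of those at 50 to 60 92.9% (87.7 to 96.4). For vehicle regions of the same heights, the shares called after estradiol were 72.2% (54.8 to 85.8), 78.7% (73.9 to 82.9) and 97.1% (94.9 to 98.6). The intervals of the 2 directions did not overlap at 25 to 30 and at 35 to 40, and overlapped at 50 to 60. The lowest pileup called was 10 tags in both lists, and the same scaled height stands for fewer tags in vehicle. Under a height of 25 there were 603 estradiol regions and 1 vehicle region. A low estradiol region could thus less readily be called in vehicle, and the 2 directions are not comparable as such. At 60 and over, 224 of 225 vehicle regions had an estradiol counterpart (99.6%; 97.5 to 100.0), while 73 of 82 estradiol regions had a vehicle one (89.0%; 80.2 to 94.9). The high estradiol regions without a vehicle call are described next.

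**Figure D4:**
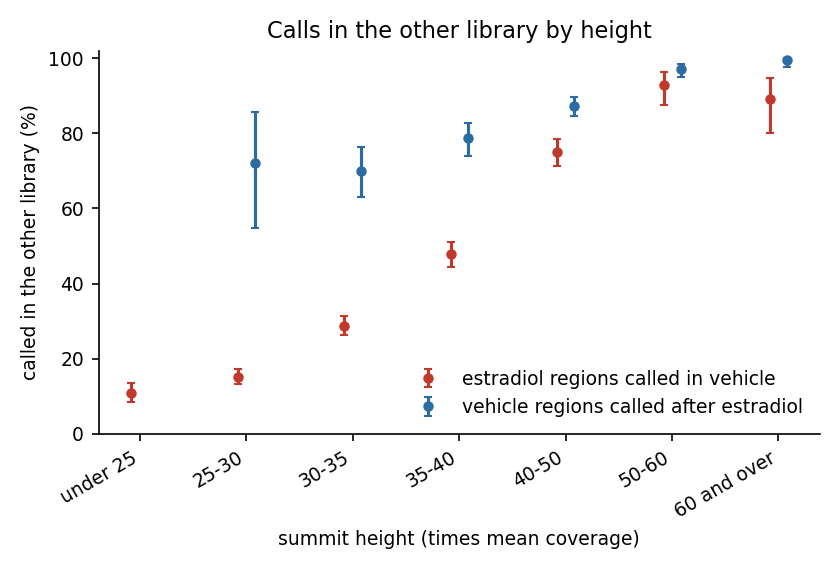
Percentage of regions also called in the other library (y axis, with 95% exact binomial intervals for counting error) by summit height in times mean coverage (x axis), for estradiol regions in red and vehicle regions in blue; bins with fewer than 20 regions are left out. The estradiol share goes from 10.8% under 25 to 92.9% at 50 to 60 and is 89.0% in the highest bin, while every vehicle share is 70.0% or more. The same height stands for more tags in the deeper estradiol library, so the colours are not comparable as such.

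A region was counted as a strong estradiol-only or vehicle-only region when its scaled height was at least 43.7, the median of the vehicle list. There were 80 strong estradiol-only regions, 1.68% of the estradiol list, and 68 strong vehicle-only regions, 3.55% of the vehicle list. These counts depended on the lists: with lists of equal length they were 79 and 332, and without regions within 10 kb of another 57 and 170. The estradiol count also depended on the scaling: when estradiol heights were raised to a median ratio of 1, 460 estradiol-only regions were strong, and when heights were scaled by tags alone, 13 were. The vehicle count cannot move with these scalings, since the threshold is the vehicle median. Among shared regions, 464 of 1672 in the estradiol list (27.8%) reached that threshold, and 1051 of 1668 in the vehicle list (63.0%). Far fewer estradiol than vehicle regions could thus count as strong, and the shares of 1.68% and 3.55% are not comparable as such.

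The strong estradiol-only regions fell into a clustered and a solitary group. Of the 80, 31 had another estradiol region within 10 kb (38.8%; 28.1 to 50.3), against 10.9% (9.80 to 12.03) of all estradiol-only regions and 5.88% (1.63 to 14.4) of the strong vehicle-only ones. Neighbours were sought in a region's own list, and the estradiol list is the longer one. Among shared regions, 13.8% in the estradiol list and 6.35% in the vehicle list had a neighbour. The 9 highest strong estradiol-only regions all had such a neighbour and lay on 4 chromosomes. They were short, from 84 to 117 bp, and their local background was high, from 5.10 to 18.9 times mean coverage, so that fold enrichment was only 4.27 to 9.82. The highest was on chromosome 6 from 58777807 to 58777897, with 66 tags, a scaled height of 105 and a fold enrichment of 5.22.

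Clusters of strong regions were seen on chromosomes 10 and 18. Between 42 and 43 Mb on chromosome 10, 9 estradiol regions were called, 8 of them estradiol-only and 5 of them strong, against 1 vehicle region. The highest there, from 42396121 to 42396204, had 44 tags and a scaled height of 70.1. Between 18 and 19 Mb on chromosome 18, 3 estradiol regions were called, all strong, and no vehicle region. They had 44, 39 and 50 tags, with scaled heights of 70.1, 62.1 and 79.6. Of the 7 strong estradiol-only regions that were not called after dexamethasone either, 4 lay in this chromosome 10 window and 2 in the chromosome 18 window. The other was on chromosome 10 from 112261139 to 112261256, with 28 tags, a scaled height of 44.6 and a fold enrichment of 10.4. Among the 4, the region from 42364715 to 42364804 had no neighbour within 10 kb, so it counts as solitary below. Repeats and regions prone to mapping artefacts were not screened, and their part in these clusters was not tested.

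The 49 solitary strong regions had a lower background and a higher enrichment. Their median local background was 2.43 times mean coverage, against 3.64 for the 31 clustered ones, their median fold enrichment 12.4 against 9.34, and their median length 165 bp against 129 bp. The highest was on chromosome 3 from 189794926 to 189795077, with 37 tags, a scaled height of 58.9 and a fold enrichment of 14.1. It was followed by chromosome 2 from 88899705 to 88899879, with 35 tags, a height of 55.7 and a fold enrichment of 16.2. On chromosome 3 a region from 180707471 to 180707673 had 34 tags and a height of 54.1.

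Regions with 33 tags and a height of 52.5 followed on chromosome 6 from 11537680 and on chromosome 18 from 48724201. Regions with 32 tags and a height of 51.0 started on chromosome 3 at 172428929, on chromosome 9 at 103174009 and on chromosome 15 at 86338133. All 8 were also called after dexamethasone, with scaled heights from 54.7 to 97.2. The dexamethasone height was above the estradiol height at 7 of the 8, the exception being the region on chromosome 2 (54.7 and 55.7). In all, 47 of the 49 solitary strong regions were called after dexamethasone, as were 83.4% of all 3089 estradiol-only regions and 98.7% of the estradiol regions shared with vehicle. The dexamethasone list was longer than both other lists, with 8419 regions on the same chromosomes, so a call there is not particular to these regions.

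Of the 68 strong vehicle-only regions, 64 had no neighbour within 10 kb, and the 8 highest of these are given here. The highest, on chromosome 1 from 169863394 to 169863510, had 27 tags in vehicle, a scaled height of 65.5 and a fold enrichment of 12.1. It was the one vehicle region with a height of 60 or more that had no estradiol counterpart. The next solitary ones were on chromosome 9 from 35604121 to 35604276, with 24 tags and a height of 58.3, and on chromosome 3 from 184081017 to 184081140, with 23 tags and a height of 55.8. A region on chromosome 1 from 114447590 to 114447796 had 22 tags and a height of 53.4.

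The following 4, which started on chromosome 4 at 15683284, on chromosome 5 at 139944211, on chromosome 6 at 13575170 and on chromosome 8 at 11711593, each had 21 tags and a height of 51.0, and are the first in chromosome order of 6 solitary regions tied at that height. All 8 were called after dexamethasone, with heights from 50.6 to 58.7. Of the 68 strong vehicle-only regions, 65 were called after dexamethasone (95.6%; 87.6 to 99.1), against 209 of all 246 vehicle-only regions (85.0%) and 98.7% of the vehicle regions shared with estradiol. The other 3 started on chromosome 2 at 131100283, on chromosome 16 at 22308543 and on chromosome 5 at 131832037, with 18 or 19 tags.

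The distance to the other list was measured for regions called in a single list. The median distance from an estradiol-only region to the nearest vehicle region was 308 kb, and 91 of 3089 lay within 1 kb of one. For vehicle-only regions the median distance to an estradiol region was 88.7 kb, and 20 of 246 lay within 1 kb. Longer lists leave shorter gaps, so the 2 distances are not comparable as such. Of the strong estradiol-only regions, 13 of 80 lay within 1 kb of a vehicle region, next to a site already open in vehicle.

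The share of estradiol-only regions differed between chromosomes, around 64.9% for all. It was lowest on chromosome 12, where 172 of 331 estradiol regions had no vehicle counterpart (52.0%; 46.4 to 57.5). Chromosome 12 held 8.83% of the vehicle list and 6.95% of the estradiol list. It was highest on chromosome 22, with 35 of 41 (85.4%; 70.8 to 94.4), and on chromosome 20, with 62 of 79 (78.5%; 67.8 to 86.9). On chromosome 19 it was 71.6% (65.0 to 77.5). These were the 4 chromosomes of 23 whose counting interval did not include the share for all, with no adjustment for the number examined. Region heights moved with this share in part: the median estradiol height was 33.4 on chromosome 12, 27.1 on chromosome 22, 30.3 on chromosome 20 and 28.7 on chromosome 19, and the part of height in the difference was not tested.

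Chromosome 12 also held the megabase with the most estradiol regions. Between 6 and 7 Mb, 19 estradiol regions were called, of which 9 were estradiol-only, and 10 vehicle regions, each of which had a counterpart. Between 56 and 57 Mb it held 15 estradiol regions, of which 3 were estradiol-only, and 12 vehicle regions. The other windows with 9 or more estradiol-only regions were on chromosome 5 from 149 to 150 Mb, with 10 of 12, and on chromosome 11 from 57 to 58 Mb, with 9 of 13, from 62 to 63 Mb, with 9 of 10, and from 64 to 65 Mb, with 9 of 9. The last of these had no vehicle region at all. Of these 4 windows and the one on chromosome 12 from 6 to 7 Mb, only the window on chromosome 5 held strong estradiol-only regions, 2 of its 10. Vehicle-only regions were more scattered: the most in a window were 3, on chromosome 10 from 99 to 100 Mb and on the X chromosome from 134 to 135 Mb. In the X window all 3 vehicle regions lacked a counterpart, and the 1 estradiol region there was estradiol-only.

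**Figure D5:**
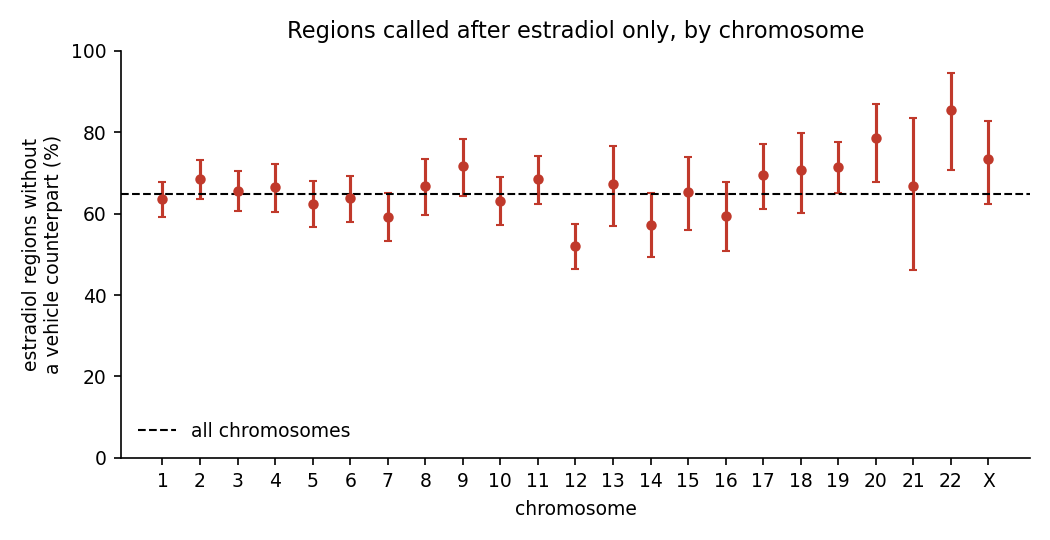
Percentage of estradiol regions without a vehicle counterpart (y axis, with 95% exact binomial intervals for counting error) on each chromosome (x axis); the dashed line is the 64.9% of all chromosomes. Chromosome 12 lies lowest at 52.0% and chromosome 22 highest at 85.4%.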

How the data were processed

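ATAC-seq peak tables of 1 vehicle, 1 estradiol and 1 dexamethasone library were read. The table of the combined treatment was not used. Per the submitters' processing notes, Bowtie 1.1.2 and MACS2 2.1.0.20140616 were used and the build is hg19. Per the file headers, peaks were called on each library alone, without a control, at a p cutoff of 1e-10 with a 10000 bp background window and at most 1 tag per position, and 50 bp tags were extended to a modelled length without a shift towards the transposase cut. The deposited pileup signal is an unscaled number of extended tags. Fold enrichment, as deposited, sets pileup plus 1 over local background plus 1. The −log10 p-values and q-values that the authors deposited served to rank or filter regions. All per-region values are the authors'.

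Pileups were divided by mean coverage (tags after filtering times extension length over 2.7 Gb), and the background was derived from pileup and fold enrichment. Each estradiol region was paired with the vehicle region sharing most bases. Shares have 95% exact intervals, and no p-value was computed with 1 library a treatment. Called meant a height ratio of at least 2 or at most 0.5. Regions named were the 6 highest and 6 lowest ratios among pairs with at least 20 tags in the higher library, the 8 highest regions of each single list without a neighbour within 10 kb, and the 6 highest pairs. These last were to lie near gene starts, a condition that was dropped because the gene table was of another build; planned gene lists and motifs were not used for that reason. Clusters, megabase windows and the strong regions not called after dexamethasone were named after their values were seen. The regions and lists were chosen with earlier results of these data known. Overlap and ratio code was tested on simulated data. Alternatives covered thresholds, overlap rules, scaling and list length. Python 3.11.15, numpy 2.4.6, pandas 2.3.3, scipy 1.17.1 and matplotlib 3.10.9 were used.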

Additional observations from a re-analysis of the deposited data

Results flagged for a closer look

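The comparison left out chromosome Y. The estradiol list held 4 regions there and the vehicle list 1, and the estradiol library was the deeper one. A line from an endometrial tumour would not be expected to carry chromosome Y. These calls are therefore not read as a difference between treatments, and the origin of their tags was not tested. The 1 vehicle region, from 10037774 to 10037909 with 19 tags and a scaled height of 46.1, overlapped the estradiol region from 10037779 to 10037896, with 36 tags and a height of 57.3. The other 3 estradiol regions had 23 to 39 tags.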

How the results depend on the processing

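No paired analysis was possible because each treatment had 1 library. The count of 0 pairs at a ratio of 2 or more held under all alternatives run for scaled height and fold enrichment. With a −log10 q of at least 10, overlap was 33.0% of estradiol and 85.1% of vehicle regions, the median ratio 0.81 and 7 pairs were at 0.5 or less. With lists of equal length, overlap was 57.1% and 57.4%, with 821 estradiol-only, 815 vehicle-only and 332 strong vehicle-only regions. An overlap of 50% of the shorter region gave 84.4% of vehicle regions, and extension by 500 bp gave 37.0% of estradiol regions. With regions within 10 kb of another left out, 79.1% of vehicle regions overlapped, with 375 vehicle-only and 170 strong ones, in part because counterparts were removed. Scaling by tags alone gave a median ratio of 0.66, 143 pairs at 0.5 or less and 13 strong estradiol-only regions. Scaling to a median ratio of 1 gave 0 pairs at 0.5 or less and 460 strong estradiol-only regions. The fold enrichment turned the median to 1.06, with 0 pairs at 0.5 or less. These measures differ by construction in what they divide by, and fold enrichment also adds 1 to pileup and background. Both alternatives below were chosen after seeing the data. Among regions called after dexamethasone, overlap was 39.1% and 88.7%. Among regions of at least 104 bp it was 43.5% and 81.1%, with 2012 estradiol-only and 110 strong vehicle-only regions. Of 117 values computed under alternatives, 90 stayed within counting error or 1.5 times of the value reported. Of these 90, 36 were ratios of single named pairs, whose counting intervals are wide. Among the main results 54 values stayed, 26 moved and 1 turned direction. The 54 include strong vehicle-only counts under changed scaling, which cannot move. They also include the counts of 0 pairs at a ratio of 2 or more, which cover only regions called in both libraries. For the other moves, the cause was not tested. Pileups of about 20 tags leave wide counting intervals at single regions.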
